A study of Mus musculus with 6 samples.

Results

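Adipocyte nuclei of mouse subcutaneous white fat that were rich in Pck1, Nrg4 and Cfd transcripts were described here, with the 6 single-nucleus RNA-seq libraries of the study as the samples. Nuclei with 500 or more detected genes entered, unless mitochondrial transcripts made up over 5% of their UMIs (unique molecular identifiers, the counted RNA molecules). A nucleus was called an adipocyte nucleus when at least 5 of Plin1, Adipoq, Plin4, Cidec, Lipe, Acvr1c, Adrb3 and Pde3b were detected. Detected means at least 1 UMI. Members were selected on the transcripts that name the class: a member had at least 2 of Pck1, Nrg4, Nnat, Cfd and Slc1a3, and more of these 5 than of each of 3 competing sets of 5 genes, namely Mageb18, Ptchd4, Pnpla3, Lhfpl2 and Tenm4, or Peg10, Ptger3, Plagl1, Btc and Svep1, or Gabrr2, Vat1l, St6galnac5, Rgs7 and Chrdl1. The rule gave 7206 member nuclei of 15760 adipocyte nuclei, out of 61496 kept nuclei. The other 8554 adipocyte nuclei are the comparison class throughout, and 4449 of them were led by none of the 4 sets.

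The Treg knockout group holds 3 libraries of GPSM1ΔTreg mice, a name that stands for loss of Gpsm1 from regulatory T (Treg) cells. The flox control group holds 3 libraries from GPSM1f/f mice, whose floxed Gpsm1 gene is present without that deletion. Mice of both groups ate a high-fat diet that started at an age of 7 weeks. Each sample is labelled with 12 weeks of this diet, while the protocol gives 5 to 12 weeks. Each group had 3 mice, and nuclei were sorted on the DNA stain DAPI. The sources used here do not give the Cre driver, the deleted exons, the sex of the mice or the hour of sampling. Gpsm1 encodes a guanine nucleotide dissociation inhibitor for inhibitory G proteins, and adipocytes were not its labelled target.

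White adipocytes store triglyceride and release fatty acids and hormones. Pck1, the cytosolic phosphoenolpyruvate carboxykinase, makes the glycerol backbone for re-esterifying fatty acids when glucose is scarce, and Cfd (adipsin) is a serine protease of the alternative complement pathway that fat cells secrete in quantity. Nrg4 is a secreted growth factor of the neuregulin family made by fat, Nnat is an imprinted membrane protein of the endoplasmic reticulum, and Slc1a3 carries glutamate and aspartate into cells. Adipocyte nuclei of one depot are known to fall into classes that differ in lipid synthesis, insulin response and stress genes.

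The deposited matrices held 38857282 to 41951373 UMIs per knockout library and 45007561 to 55342903 per control library. Summed over member nuclei, the depth was 6734581, 10544947 and 10469353 UMIs in knockout libraries 1, 2 and 3, against 5514368, 6313571 and 7716744 in control libraries 1, 2 and 3. Values in threes below follow that order of libraries. Flox control 3 stood apart. In it, 42.9% of member nuclei drew over 0.2% of their UMIs from 86 markers of other cell types, against 10.9, 11.6 and 17.9% in the knockout libraries and 12.0 and 10.3% in flox controls 1 and 2. Levels are in CPM, the UMIs of a gene scaled to 1000000 UMIs of the summed nuclei of a library. Endothelial markers summed to 67.6, 85.2 and 109 CPM in knockout members, against 134, 62.7 and 274 CPM in control members. Macrophage markers other than Lpl summed to 153, 193 and 292 CPM in knockout members, against 267, 236 and 374 CPM in control members. Progenitor markers outside the adipocyte lists summed to 315, 493 and 512 CPM in knockout members, against 498, 549.9 and 651 CPM in control members. T and NK cell markers ran the other way, with 69.0, 53.2 and 140.1 CPM in knockout members against 16.9, 22.0 and 39.4 CPM in control members. So did B-cell markers other than Ebf1, with 301, 107 and 389 CPM in knockout members, against 48.6, 64.3 and 167 CPM in control members. Knockout library 1 stood apart from the other knockout libraries in Usp9y, a Y-linked gene chosen after its values were seen, with 11.4, 0.474 and 0.0955 CPM in knockout members, against 0, 0 and 0.259 CPM in control members, while Ddx3y, also Y-linked, had 167, 181 and 198 CPM in knockout members, against 144, 153 and 165 CPM in control members. T and NK cell sums did not overlap between the groups, and the part of these transcripts in the results below was not tested beyond the restricted sums given with them. Any 2 libraries shared 24 to 39 kept barcodes, at most 0.382% of the smaller library. In sums over nuclei, fewer nuclei with a transcript and less of it per nucleus cannot be told apart.

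Member nuclei made up most adipocyte nuclei of the knockout libraries and the smaller part of those of the control libraries. They numbered 826, 1983 and 1678 of 1457, 2906 and 2531 adipocyte nuclei in the knockout libraries, against 665, 829 and 1225 of 2581, 3136 and 3149 in the control libraries. The shares were 56.7, 68.2 and 66.3% in knockout libraries and 25.8, 26.4 and 38.9% in control libraries, with means of 63.7 ± 6.18% and 30.4 ± 7.40% (SD, n = 3 each). Exact 95% Clopper-Pearson intervals, which cover counting error only, reached from 54.1 to 59.3% for the lowest knockout library and from 37.2 to 40.6% for the highest control library, so the groups did not overlap. The gap is given as a description with no test, because the rule was drawn from the values of these nuclei, those of Cfd and Pck1 included.

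The share varied with depth. Among nuclei of 2000 to 4000 UMIs it was 81.3, 87.3 and 83.9% in knockout and 50.9, 52.1 and 40.2% in control libraries, and above 15000 UMIs it was 21.2, 12.6 and 26.4% in knockout and 8.56, 5.26 and 14.9% in control libraries. Between them it was 74.5, 75.9 and 75.2% in knockout and 38.6, 40.0 and 49.7% in control libraries at 4000 to 8000 UMIs, and 54.9, 43.7 and 50.5% in knockout and 24.3, 23.0 and 45.4% in control libraries at 8000 to 15000 UMIs. From 2000 UMIs up the share was lower in each deeper range in all libraries but flox control 3, which was lower only above 8000 UMIs, and the groups overlapped in both ranges above 8000 UMIs, by knockout library 2 and flox control 3. Member nuclei had median totals of 6878, 4542 and 5304 UMIs in the knockout libraries, against 7155, 6722 and 4718 UMIs in the control libraries. The means of 5574 ± 1191 in knockout and 6198 ± 1300.2 in control libraries (SD, n = 3 each) differed by less than the spread between libraries (exact two-sided permutation p = 0.6, smallest possible 0.1). The other adipocyte nuclei were deeper, with medians of 12925, 9115 and 8978 UMIs in knockout and 11728, 11024 and 6096 UMIs in control libraries. With nuclei thinned to 2000 UMIs, the shares were 56.0, 64.7 and 63.2% in knockout and 27.1, 25.7 and 40.3% in control libraries. Nuclei under 2000 UMIs were left out of the thinned shares. They were 13, 132 and 86 adipocyte nuclei in knockout and 29, 27 and 616 in control libraries. Among nuclei of 3000 to 8000 UMIs they were 75.6, 78.4 and 76.3% in knockout and 40.0, 41.2 and 46.1% in control libraries. When Cfd and Pck1 were taken out of the rule and nuclei were thinned to 2000 UMIs, Nrg4, Nnat and Slc1a3 alone gave 27.4, 31.7 and 29.2% in knockout and 9.84, 9.17 and 16.3% in control libraries. The competing sets kept their 5 genes there, so these shares are not those of the same class. Nrg4, Nnat and Slc1a3 are also rule genes drawn from these nuclei, so the gap that remains is a description too. The groups did not overlap with thinning, at 3000 to 8000 UMIs or without Cfd and Pck1. Among the other adipocyte nuclei, those led by the Mageb18 set made up 10.4, 8.77 and 7.27% of adipocyte nuclei in knockout and 22.2, 26.0 and 22.7% in control libraries. Those led by no set made up 25.9, 19.4 and 20.4% in knockout and 37.2, 33.7 and 30.9% in control libraries.

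**Figure D1:**
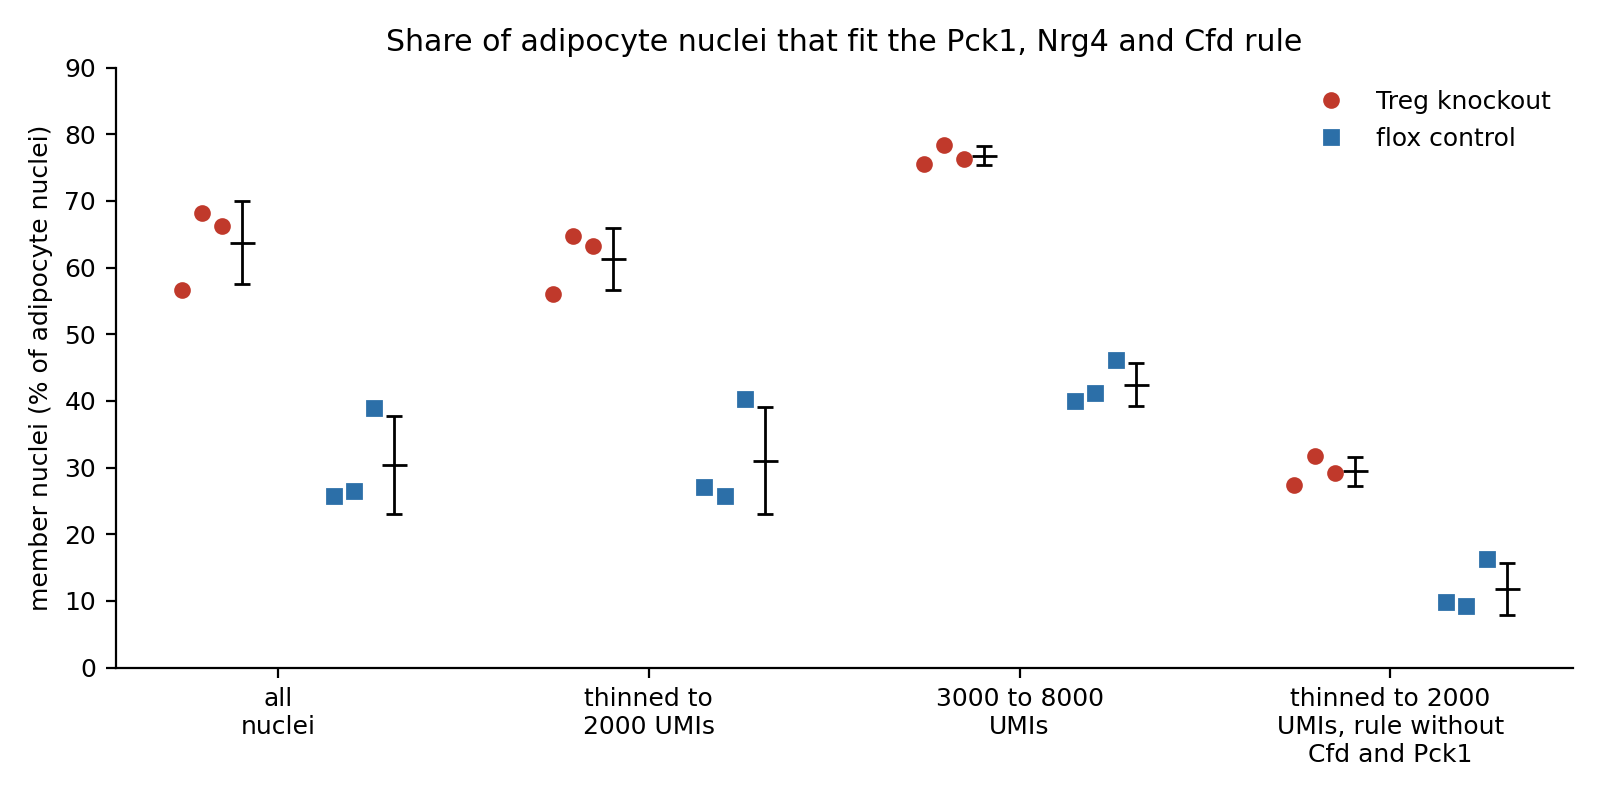
Share of adipocyte nuclei that met the rule (vertical axis, percent), by library, under 4 settings. Red circles are the 3 Treg knockout libraries and blue squares the 3 flox control libraries, black bars are the mean ± SD, and in each setting all 3 knockout libraries lie above all 3 control libraries, with means of 63.7% and 30.4% over all nuclei.

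At the edge of the rule, 3184 nuclei were members by a margin of 1 gene, with a mean of 4.40 genes of their own set and 3.40 of the strongest competing set. A margin of 1 gene made up 40.7, 30.5 and 35.6% of members in the knockout libraries, against 62.9, 65.1 and 56.2% in the control libraries. Control members thus lay nearer the border than knockout members did. The part of this in the comparisons within members, and in the differences between the classes, was not tested. Sums over nuclei with all 5 genes do not test it, since such a nucleus can still have a margin of 1 gene. Just outside, 3627 nuclei tied, with a mean of 4.12 genes of each. All 5 genes were detected in 662, 1518 and 1207 knockout members, against 459, 525 and 592 control members. The class is therefore a range on a count of genes and has a broad border with the other adipocyte nuclei.

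The genes that chose the members are given as levels without a test. Cfd separated the classes and the groups most widely, at 527, 1261 and 715 CPM in knockout members, against 307, 286 and 303 CPM in control members. It stood at 120.0, 226 and 174 CPM in the other adipocyte nuclei of knockout libraries, against 56.4, 46.1 and 54.0 CPM in those of control libraries. Every knockout value of Cfd lay above every control value in both classes, and knockout library 2 was the highest. Pck1 had 1446, 1551 and 1635 CPM in knockout members, against 1045, 1068 and 1133 CPM in control members. Its levels were lower outside the class, with 511, 473 and 522 CPM in the other adipocyte nuclei of knockout libraries, against 381, 351 and 429.7 CPM in those of control libraries. Nrg4 had 1544, 1445 and 1278 CPM in knockout members, against 890.4, 953 and 1188 CPM in control members. Outside the class Nrg4 had 725, 715 and 576 CPM in the other adipocyte nuclei of knockout libraries, against 519, 580.2 and 731 CPM in those of control libraries. For Pck1 the groups did not overlap in either class, whereas for Nrg4 they did not overlap in members and did overlap in the other nuclei. Slc1a3 had 1360.3, 2371 and 1522 CPM in knockout members, against 799, 879 and 1321 CPM in control members, with flox control 3 just below the lowest knockout library. Outside the class it had 842, 732 and 1072 CPM in the other adipocyte nuclei of knockout libraries, against 530.1, 563 and 775 CPM in those of control libraries, where the groups overlapped. Nnat had 3813, 3074 and 2469 CPM in knockout members, against 2328, 3209 and 2874 CPM in control members. It had 2069, 2300.1 and 1586 CPM in the other adipocyte nuclei of knockout libraries, against 1338, 1425 and 1297 CPM in those of control libraries. Of the 5 genes, Nnat alone had overlapping groups in members, and its groups did not overlap in the other nuclei.

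Detection told the classes apart less sharply than level did. Slc1a3 had a UMI in 97.6, 98.2 and 96.8% of knockout members and 96.8, 97.8 and 86.2% of control members. In the deeper other adipocyte nuclei it still had one in 93.7, 88.8 and 90.3% in knockout and 87.8, 88.7 and 74.8% in control libraries. Cfd had a UMI in 89.2, 95.5 and 90.6% of knockout members and 81.7, 76.5 and 69.2% of control members, against 49.6, 62.3 and 51.5% of the others in knockout and 32.5, 29.0 and 23.3% of those in control libraries. After thinning to 2000 UMIs these became 58.2, 78.3 and 67.3% of knockout members and 42.0, 39.4 and 43.8% of control members, and 23.1, 30.1 and 26.7% of the others in knockout and 11.8, 10.6 and 12.1% of those in control libraries. In nuclei with none of the 8 adipocyte genes, whose library medians were 1728 to 2347 UMIs, the share with a Cfd UMI was 4.96, 10.5 and 7.68% in knockout and 4.63, 1.86 and 4.16% in control libraries. For the other 4 genes that share ran from 1.38 to 14.3% over genes and libraries, far below that in either adipocyte class.

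**Figure D2:**
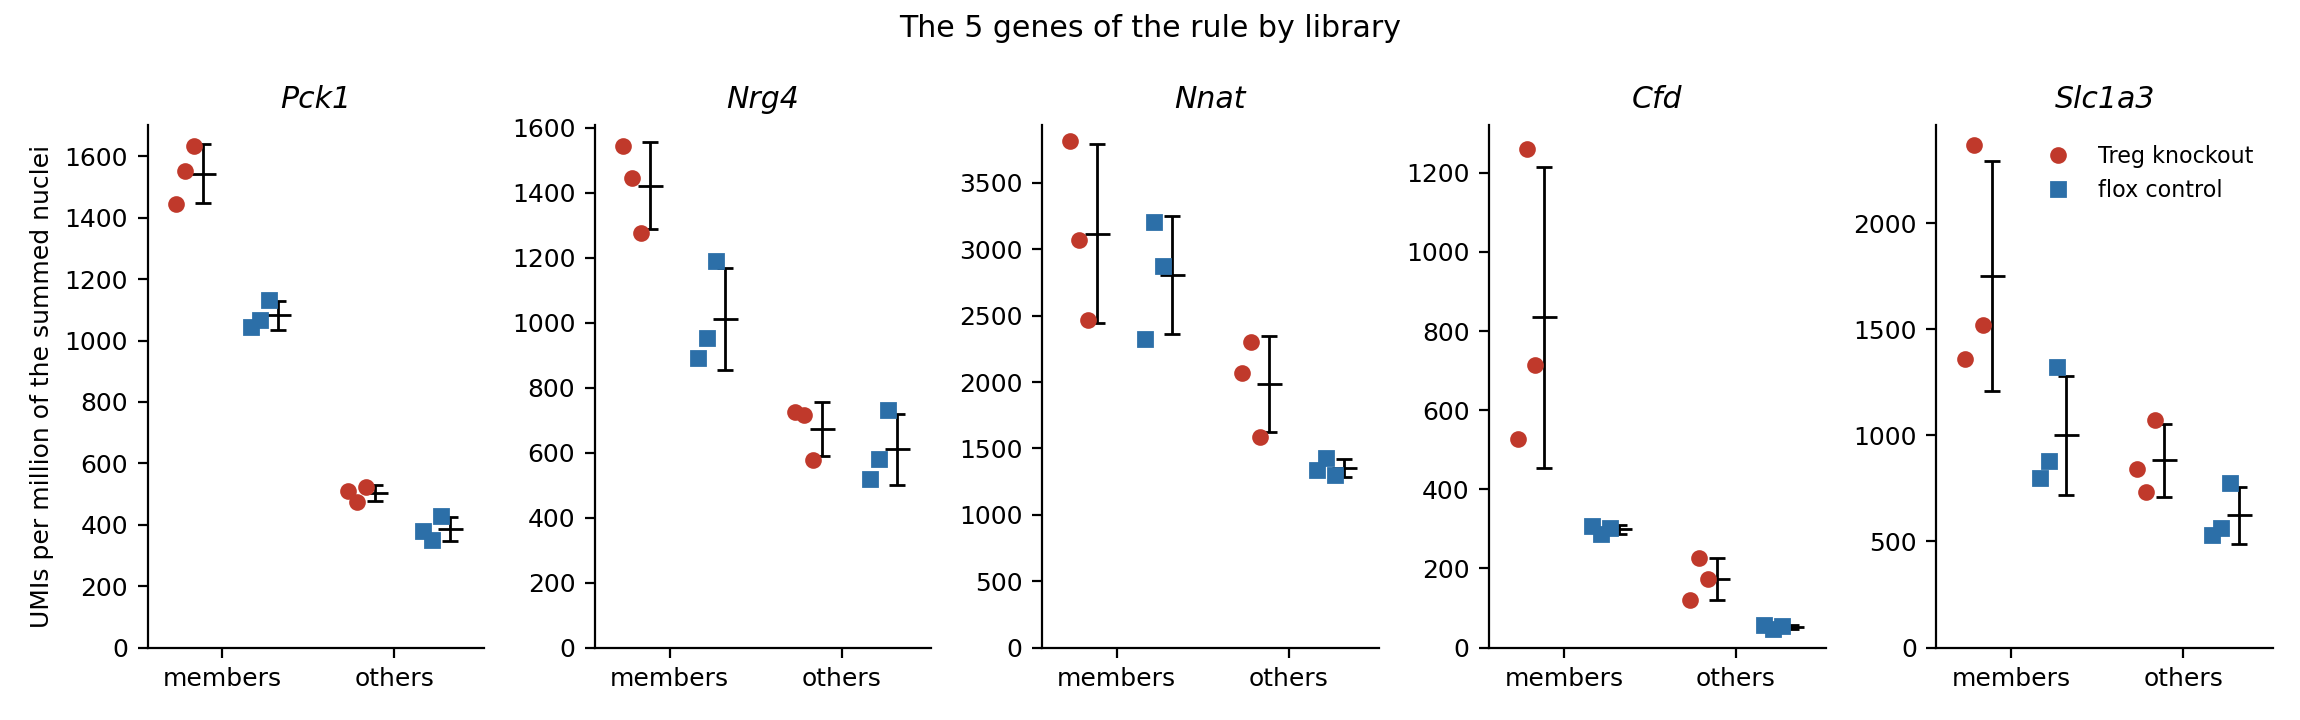
Level of the 5 genes of the rule in CPM of the summed nuclei, in members and in the other adipocyte nuclei, with 1 point per library. Red circles are Treg knockout libraries, blue squares flox control libraries and black bars mean ± SD; Cfd reached 527, 1261 and 715 in knockout members and 307, 286 and 303 in control members.

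The 250 bases upstream of the start sites of Cfd (chr10:79890603-79890852, plus strand), Pck1 (chr2:173152823-173153072, plus strand), Nrg4 (chr9:55283626-55283875, minus strand) and Ppargc1a (chr5:51567726-51567975, minus strand) are printed below because the first 3 name the class and the last was higher in it without being in the rule. They are from RefSeq on GRCm38.p6, read 5′ to 3′ on the strand of the gene, and capitals mark letters that match a searched motif on either strand.
Cfd: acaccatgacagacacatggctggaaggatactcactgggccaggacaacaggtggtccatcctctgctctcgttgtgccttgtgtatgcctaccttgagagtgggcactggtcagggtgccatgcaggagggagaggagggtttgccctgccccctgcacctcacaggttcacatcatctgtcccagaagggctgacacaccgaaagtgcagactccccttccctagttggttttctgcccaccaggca
Pck1: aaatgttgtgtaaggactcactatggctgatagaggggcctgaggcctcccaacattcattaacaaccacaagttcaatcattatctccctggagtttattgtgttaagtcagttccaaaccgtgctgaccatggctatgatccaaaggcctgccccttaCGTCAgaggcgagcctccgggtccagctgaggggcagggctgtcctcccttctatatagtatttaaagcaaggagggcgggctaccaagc
Nrg4: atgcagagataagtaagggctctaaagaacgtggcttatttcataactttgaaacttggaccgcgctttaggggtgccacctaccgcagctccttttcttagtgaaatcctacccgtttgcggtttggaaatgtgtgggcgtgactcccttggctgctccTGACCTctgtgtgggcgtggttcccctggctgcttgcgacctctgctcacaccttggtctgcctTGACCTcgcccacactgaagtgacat
Ppargc1a: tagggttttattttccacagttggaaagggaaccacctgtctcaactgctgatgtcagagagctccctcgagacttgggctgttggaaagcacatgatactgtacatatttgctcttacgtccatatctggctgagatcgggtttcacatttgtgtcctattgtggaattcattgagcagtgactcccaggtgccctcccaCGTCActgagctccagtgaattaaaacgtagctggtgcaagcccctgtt

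The motifs searched were TATAAA (the TATA box), CCAAT, TTGCNNAA (C/EBP factors), AGGTCA (the unit of nuclear receptor sites), that unit repeated with 1 base between (the direct repeat read by PPAR with RXR), TGACGTCA (the cAMP response element), CGTCA (its short form, which the full element contains) and CACGTG (the E-box of clock factors). Pck1 and Ppargc1a each held 1 CGTCA, at 90 and 49 bases before the start site. Nrg4 held AGGTCA on the opposite strand, at 90 and 26 bases before the start site, and Cfd held no match. Over all 32817 promoters in the table, 17.7% held CGTCA and 14.03% held AGGTCA in the same window. Among 40 promoters of 33 genes that were higher in members, 6 held CGTCA, 6 held AGGTCA and 6 held TTGCNNAA. TTGCNNAA stood in 9.57% of all promoters, TATAAA in 12.4% and CCAAT in 33.8%, against 3 and 12 of the 40. The direct repeat stood in 0.0335% of all promoters, TGACGTCA in 1.55% and CACGTG in 6.02%, against 0, 1 and 2 of the 40. A match is a string of letters and says nothing about binding.

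The members carried adipocyte markers outside the rule at about the level of the other adipocyte nuclei. The 15 adipocyte markers that the rule did not use, such as Pparg, Lpl, Dgat2 and Ghr, summed to 35564, 36467 and 42574 CPM in knockout members and 35791, 35309 and 36604 CPM in control members. In the others they summed to 38738, 35556 and 42188 CPM in knockout and 35409, 35052 and 36639 CPM in control libraries. Of brown-fat markers, Ucp1, the uncoupling protein of brown adipocytes, had 0.148, 1.04 and 1.91 CPM in knockout members, against 0, 0.317 and 0.389 CPM in control members. Zic1 was at 0 in members of all 6 libraries and Elovl3 in 5 of them. The 9 brown or beige markers together summed to 255, 188 and 203 CPM in knockout members, against 122, 101 and 154 CPM in control members, without overlap, and to 131, 82.0 and 93.8 CPM in the other adipocyte nuclei of knockout libraries, against 96.6, 81.4 and 107 CPM in those of control libraries. Most of that sum in members was Ppara, given below, and Cpt1b, the muscle-type carnitine palmitoyltransferase, had 9.95, 7.40 and 7.45 CPM in knockout members, against 4.17, 4.28 and 5.96 CPM in control members. For both of these genes every knockout value in members lay above every control value.

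Genes that were higher in members are described next, and since the rule was drawn from a clustering of these nuclei they carry no test. With a mean of at least 30 CPM and at least 1.5-fold more in members in each of the 6 libraries, 49 genes were higher, of which Cfd, Pck1 and Nrg4 are rule genes. Among the 20 with the largest lowest ratio, the carboxylesterases stood out, which hydrolyse lipid esters in fat and liver. Ces1f had a mean of 116 CPM in members and 28.4 CPM in the other adipocyte nuclei, 3.00 to 5.63-fold higher over the libraries. Ces1d had a mean of 335 CPM in members and 134 CPM in the other adipocyte nuclei, 2.17 to 3.11-fold higher. Both belong to a cluster of similar genes, and how reads between them were split was not checked. Transcription regulators followed, with Ebf2, a determinant of adipocyte and beige fat identity, at a mean of 337 CPM in members and 116 CPM in the other adipocyte nuclei (2.46 to 3.52-fold). Twist2 was 2.19 to 3.18-fold and the clock-controlled factor Hlf 2.08 to 4.22-fold higher. Matrix and secreted proteins included Podn, a small leucine-rich proteoglycan (2.24 to 3.84-fold), Dpt, dermatopontin (2.17 to 2.69-fold), Apoe, the lipid carrier (1.91 to 2.44-fold), and Retnla, a resistin-like protein (1.82 to 2.48-fold). The neuronal-type glucose transporter Slc2a3 was 1.83 to 3.40-fold and the neurotrophin receptor Ntrk3 2.43 to 3.90-fold higher. Ints6l, Dok6, Ifi27l2a, Acp5, Gstt1, Dock11 and St3gal6 completed the 20, at 1.78- to 4.71-fold. Progenitor and macrophage markers were also higher in members, with a median log2 ratio of 0.58 for each list. The part of RNA of such cells in the higher genes was not tested.

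Further down the same list, and chosen after their values were seen, stood several genes of hormone output and fuel use. Retn, which encodes the hormone resistin, was 1.70 to 1.79-fold higher in members, the narrowest range among the genes named here. Rarres2, the chemokine-like adipokine chemerin, was 1.60 to 1.93-fold higher, Slc2a4, the insulin-responsive glucose transporter, 1.53 to 2.02-fold, and Scd1, the stearoyl-CoA desaturase, 1.64 to 2.36-fold. Ppargc1a, a coactivator of mitochondrial genes, was 1.70 to 3.69-fold, Fam13a, a gene tied to fat distribution in humans, 1.63 to 2.80-fold, and Gpat4, a glycerol-phosphate acyltransferase, 1.52 to 1.89-fold higher.

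By the mirrored rule, 131 genes were lower in members in every library, of which 5 are genes of the competing sets. Pex5l, a regulator of pacemaker channels in neurons, had a mean of 6.82 CPM in members and 97.3 CPM in the other adipocyte nuclei and was 9.23 to 32.3-fold lower. Slc5a7, the choline transporter, had a mean of 30.5 CPM in members and 216 CPM in the other adipocyte nuclei (4.43 to 13.3-fold lower). Mylk, the myosin light chain kinase, was 3.39 to 6.66-fold lower, the glutamate receptor subunit gene Grid1 3.31 to 9.82-fold, the splicing factor gene Rbfox1 3.07 to 7.58-fold, and the histone deacetylase gene Hdac9 2.71 to 4.68-fold. The other named genes of this group were Tcerg1l, Nhs, Sez6l, Specc1, Pawr, Sh3tc2, Cdkl4, Dnajc6 and Adam23. The lower genes were long, with a median span of 110820.0 bases, against 45399 bases for the higher genes and 24313 bases for all genes tested. Across the genes tested in members, which are not independent replicates, Spearman's rank correlation between span and the ratio of members to others was -0.21, and that between span and the log2 fold change of knockout over control in members was -0.18.

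**Figure D3:**
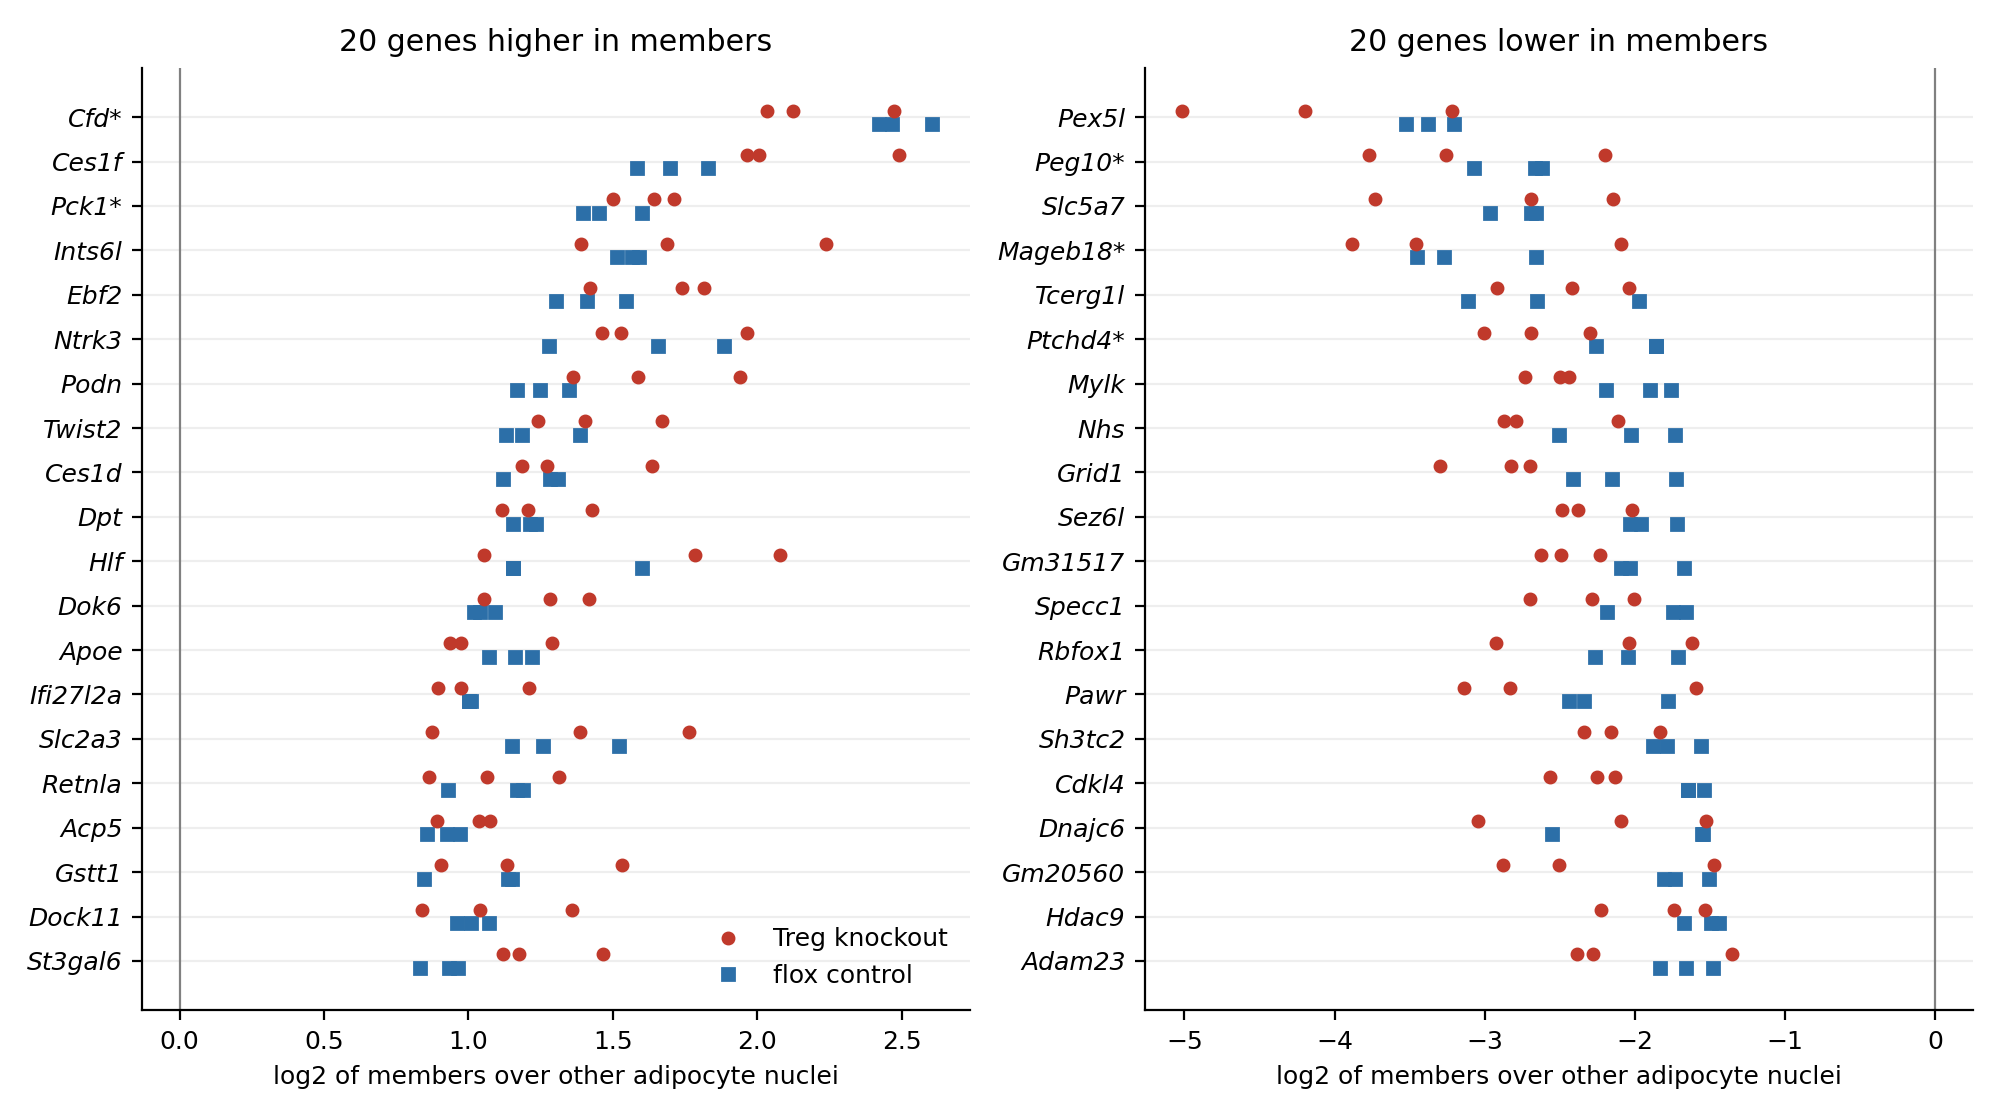
Log2 ratio of the level in members to that in the other adipocyte nuclei (horizontal axis) for the 20 genes with the largest lowest ratio and the 20 of the mirrored rule, with 1 point per library. Red circles are Treg knockout libraries and blue squares flox control libraries, an asterisk marks genes of the rule, and every library lies above 0 for the higher genes and under 0 for the lower genes.

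By gene list, the median log2 ratio of members to others was 0.49 for thermogenic and futile cycling genes, 0.45 for circadian clock genes, 0.45 for cytosolic ribosomal proteins, 0.36 for nuclear-encoded oxidative phosphorylation and 0.32 for interferon response genes, against 0.12 over all genes tested. De novo lipogenesis genes lay at -0.08 and cholesterol genes at -0.13. These medians describe the summed nuclei of the class and leave out the genes of the rule. Markers of most other cell types were higher in members too. Medians were 0.58 for progenitor, 0.58 for macrophage and 0.56 for mural markers. T and NK cell, endothelial and B-cell markers had 0.51, 0.49 and 0.37. Those of dendritic and epithelial cells, with 2 and 1 genes tested, had -0.24 and -0.17. The part of such RNA in the medians of the gene lists was not tested.

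The members were not uniform. Clustering of the member nuclei alone, with no integration across libraries, gave 7 sub-clusters, which are described by their leading genes without a name. Sub-cluster 1 (29.3% of members) was led by Vat1l, Grb14 and Tmem45b, sub-cluster 2 (20.9%) by Nr4a3, Cish, Cfd, Podn and Cyp2e1, and sub-cluster 5 (19.9%) by the metallothioneins Mt1 and Mt2 and the glucocorticoid-induced gene Fkbp5. Vat1l, a gene of the competing Gabrr2 set, had 170 CPM in sub-cluster 1, against a mean of 53.3 CPM over the other sub-clusters. Sub-cluster 3 (11.4%) was led by Kcnc2, Slc5a7, Cux2 and Mageb18, genes of the other adipocyte nuclei. Sub-clusters 4, 6 and 7 (3.89, 12.2 and 2.41%) were led by genes of other cell types, which were Skap1, Pax5 and Bank1 of lymphocytes, Meg3, Lama2, Cldn5 and Fbn1 of stroma and vessels, and F13a1, Mrc1 and Cd163 of macrophages. Sub-cluster 6 held 42.7% of the members of flox control 3, with a median of 2291 UMIs, against 3.51 to 6.77% of those of the other 5 libraries. The members of the groups were spread differently over the sub-clusters, which is given as a description with no test, since genes that define a sub-cluster also differ between the groups. Sub-cluster 1 held 53.8, 13.2 and 5.90% of knockout members, against 53.2, 59.0 and 38.0% of control members, so that knockout library 1 resembled the control libraries here. Sub-cluster 2 held 16.1, 41.6 and 29.9% of knockout members, against 1.65, 0.483 and 2.45% of control members. Sub-cluster 3 held 12.95, 4.94 and 3.87% of knockout members, against 29.3, 26.9 and 11.2% of control members. Sub-cluster 5 held 5.81, 28.9 and 43.7% of knockout members, against 4.21, 3.38 and 1.71% of control members. Sub-cluster 4, led by lymphocyte genes, held 7.38, 2.87 and 8.16% of knockout members, against 0.15, 0.483 and 1.63% of control members. Sub-clusters 2, 4 and 5 thus held more of the members in every knockout library than in any control library, and sub-cluster 3 overlapped by knockout library 1 and flox control 3. Fkbp5, a gene of sub-cluster 5 that was chosen after its values were seen, had 453, 805 and 1359 CPM in knockout members, against 491, 446 and 372 CPM in control members.

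The effect of the Treg knockout within member nuclei was tested on UMIs summed over members, with 1 sum per library, and the part of the sub-clusters in it was not tested beyond the levels within sub-cluster 1 given below. Of 14209 genes tested, none passed an adjusted p of 0.05 in edgeR's quasi-likelihood test (0.0% called), although 2211 had an unadjusted p under 0.05 (15.6%). DESeq2 on the same sums called 163 genes higher and 297 lower (1.15% and 2.09% of the genes, 3.24% in all). When members with over 0.2% of UMIs from markers of other cell types were left out, an alternative added after the values were seen, edgeR called 30 genes higher and 73 lower of 13109 (0.229% and 0.557%, 0.786% in all). Without flox control 3 it called 1 higher and 17 lower, and 11 higher and 5 lower without knockout library 1. It called none without flox control 1 or 2 or knockout library 2 or 3, where the lowest adjusted p was 0.249, 0.137, 0.157 and 0.116 and 1607 to 2069 genes had an unadjusted p under 0.05. The genes with the lowest p are therefore given as values just short of the threshold.

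These genes were chosen after their values were seen, and Plin5 and Ctnna3 were added to the 16 genes of lowest p. Retn (chr8:3655770-3660110 on mm10) had 216, 245 and 229 CPM in knockout members, against 132, 144 and 149.9 CPM in control members (log2 fold change 0.67 ± 0.08, edgeR adjusted p = 0.0594, n = 3 each). The groups did not overlap, and the same held in the other adipocyte nuclei, with 122, 143 and 133 CPM in knockout libraries against 73.6, 80.4 and 87.7 CPM in control libraries. Podn had 150.0, 179.9 and 171 CPM in knockout members, against 68.9, 60.0 and 86.2 CPM in control members (log2 fold change 1.20 ± 0.13, edgeR adjusted p = 0.0572). Every knockout library held more than every control library, and Podn and Lncbate1 are among the leading genes of sub-cluster 2, which held few control members. Slc2a3, the high-affinity glucose transporter GLUT3, had 71.6, 81.6 and 104 CPM in knockout members, against 32.1, 33.1 and 41.6 CPM in control members (log2 fold change 1.24 ± 0.16, edgeR adjusted p = 0.0594). Plin5, the lipid droplet protein that tethers droplets to mitochondria, had 28.1, 19.3 and 29.5 CPM in knockout members, against 11.1, 8.71 and 10.1 CPM in control members (log2 fold change 1.34 ± 0.19, edgeR adjusted p = 0.0704). Lncbate1, a long noncoding RNA of brown and beige fat (chr8:108553252-108584595), had 92.1, 82.0 and 72.0 CPM in knockout members, against 27.0, 37.4 and 38.6 CPM in control members (log2 fold change 1.23 ± 0.15, edgeR adjusted p = 0.0594). Srsf7, a splicing factor, had 118, 141 and 126 CPM in knockout members, against 73.3, 75.4 and 81.0 CPM in control members (log2 fold change 0.72 ± 0.09, edgeR adjusted p = 0.0594). In all of these the knockout libraries lay above the control libraries without overlap. Restricted to members with little RNA of other cell types, the edgeR adjusted p was 0.0141 for Retn, 0.0202 for Podn, 0.0435 for Slc2a3, 0.0141 for Plin5, 0.0141 for Lncbate1 and 0.0202 for Srsf7, so that these genes passed there.

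On the lower side, Mest had the lowest p. Mest, an imprinted gene whose level follows fat expansion in mice, had 254, 274 and 280.4 CPM in knockout members, against 425, 428 and 439 CPM in control members (log2 fold change -0.70 ± 0.07, edgeR adjusted p = 0.0572). Its knockout and control values were each within a narrow band, and in the other adipocyte nuclei it had 444, 447 and 339 CPM in knockout libraries against 490.4, 410.4 and 472 CPM in control libraries, where the groups overlapped. Scn8a, a voltage-gated sodium channel (chr15:100869858-101045938), had 14.4, 14.3 and 16.2 CPM in knockout members, against 61.8, 52.7 and 39.9 CPM in control members (log2 fold change -1.80 ± 0.18, edgeR adjusted p = 0.0572). Cacna1a, a voltage-gated calcium channel, had 8.17, 8.25 and 8.79 CPM in knockout members, against 16.5, 18.5 and 19.4 CPM in control members (log2 fold change -1.14 ± 0.13, edgeR adjusted p = 0.0594). Unc79, a partner of the sodium leak channel, had 34.6, 31.3 and 28.9 CPM in knockout members, against 85.8, 75.7 and 59.0 CPM in control members (log2 fold change -1.25 ± 0.16, edgeR adjusted p = 0.0604). Arhgap18, a GTPase-activating protein, had 39.8, 42.5 and 36.9 CPM in knockout members, against 95.4, 74.9 and 83.1 CPM in control members (log2 fold change -1.11 ± 0.12, edgeR adjusted p = 0.0572). Ctnna3, an alpha-catenin, had 113, 64.6 and 72.4 CPM in knockout members, against 262, 228 and 200.3 CPM in control members (log2 fold change -1.50 ± 0.22, edgeR adjusted p = 0.0799). All knockout values of these genes lay below all control values. Among members with little RNA of other cell types, the edgeR adjusted p was 0.0202 for Mest, 0.00765 for Scn8a, 0.00665 for Unc79 and 0.0478 for Ctnna3, which passed. Cacna1a and Arhgap18 did not pass there, with log2 fold changes of -0.80 and -1.003 and edgeR adjusted p of 0.128 and 0.108. With the trend of level on gene span removed, the log2 fold changes were -1.71 for Scn8a, -1.14 for Unc79, -1.02 for Cacna1a and -1.34 for Ctnna3, which are long genes. Their edgeR adjusted p was then 0.0695, 0.109, 0.0742 and 0.152, so they did not pass. Trpc4, Nxpe4, Map2k6, Myo10 and AI314278 also lay lower and Lrrc51 higher, with edgeR adjusted p of 0.0594 to 0.0604 over all members. Of the genes given here, Mest, Scn8a, Arhgap18, Podn, Trpc4, AI314278, Nxpe4 and Unc79 passed the edgeR test without flox control 3, and Retn, Podn, Srsf7, Slc2a3 and Ctnna3 passed without knockout library 1.

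Because the groups filled the sub-clusters differently, levels within sub-cluster 1, which held members of every library, are given as well, with no test. Scn8a had 5.59, 12.8 and 3.17 CPM in knockout members, against 17.0, 28.1 and 15.7 CPM in control members in sub-cluster 1. Unc79 had 10.9, 20.6 and 4.76 CPM in knockout members, against 46.4, 49.3 and 39.2 CPM in control members there. Both stayed apart, as did Ctnna3, Cux2 and, on the higher side, Retn, Slc2a3, Plin5, Srsf7 and Lncbate1. Retn had 215, 259 and 225 CPM in knockout members, against 157, 171 and 151 CPM in control members, and Lncbate1 had 102, 74.6 and 58.7 CPM in knockout members, against 31.1, 35.7 and 43.1 CPM in control members. Cux2 had 4.97, 5.69 and 6.35 CPM in knockout members, against 8.93, 9.27 and 7.28 CPM in control members, a narrower gap than over all members. Other genes overlapped within sub-cluster 1, namely Mest with 222, 445 and 527 CPM in knockout members, against 390.1, 426 and 480.5 CPM in control members, and Podn with 178, 109 and 111 CPM in knockout members, against 96.1, 81.7 and 113 CPM in control members. Ppara, Arhgap18, Cacna1a, Sfrp5 and Col6a1 overlapped there too, with 201, 99.5 and 106 CPM in knockout members, against 88.5, 78.1 and 139.8 CPM in control members for Ppara. Only 99 nuclei of knockout library 3 lay in sub-cluster 1, with a median of 5915 UMIs. Its levels of a few CPM there, as for Scn8a, Unc79 and Cux2, therefore rest on few UMIs.

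**Figure D4:**
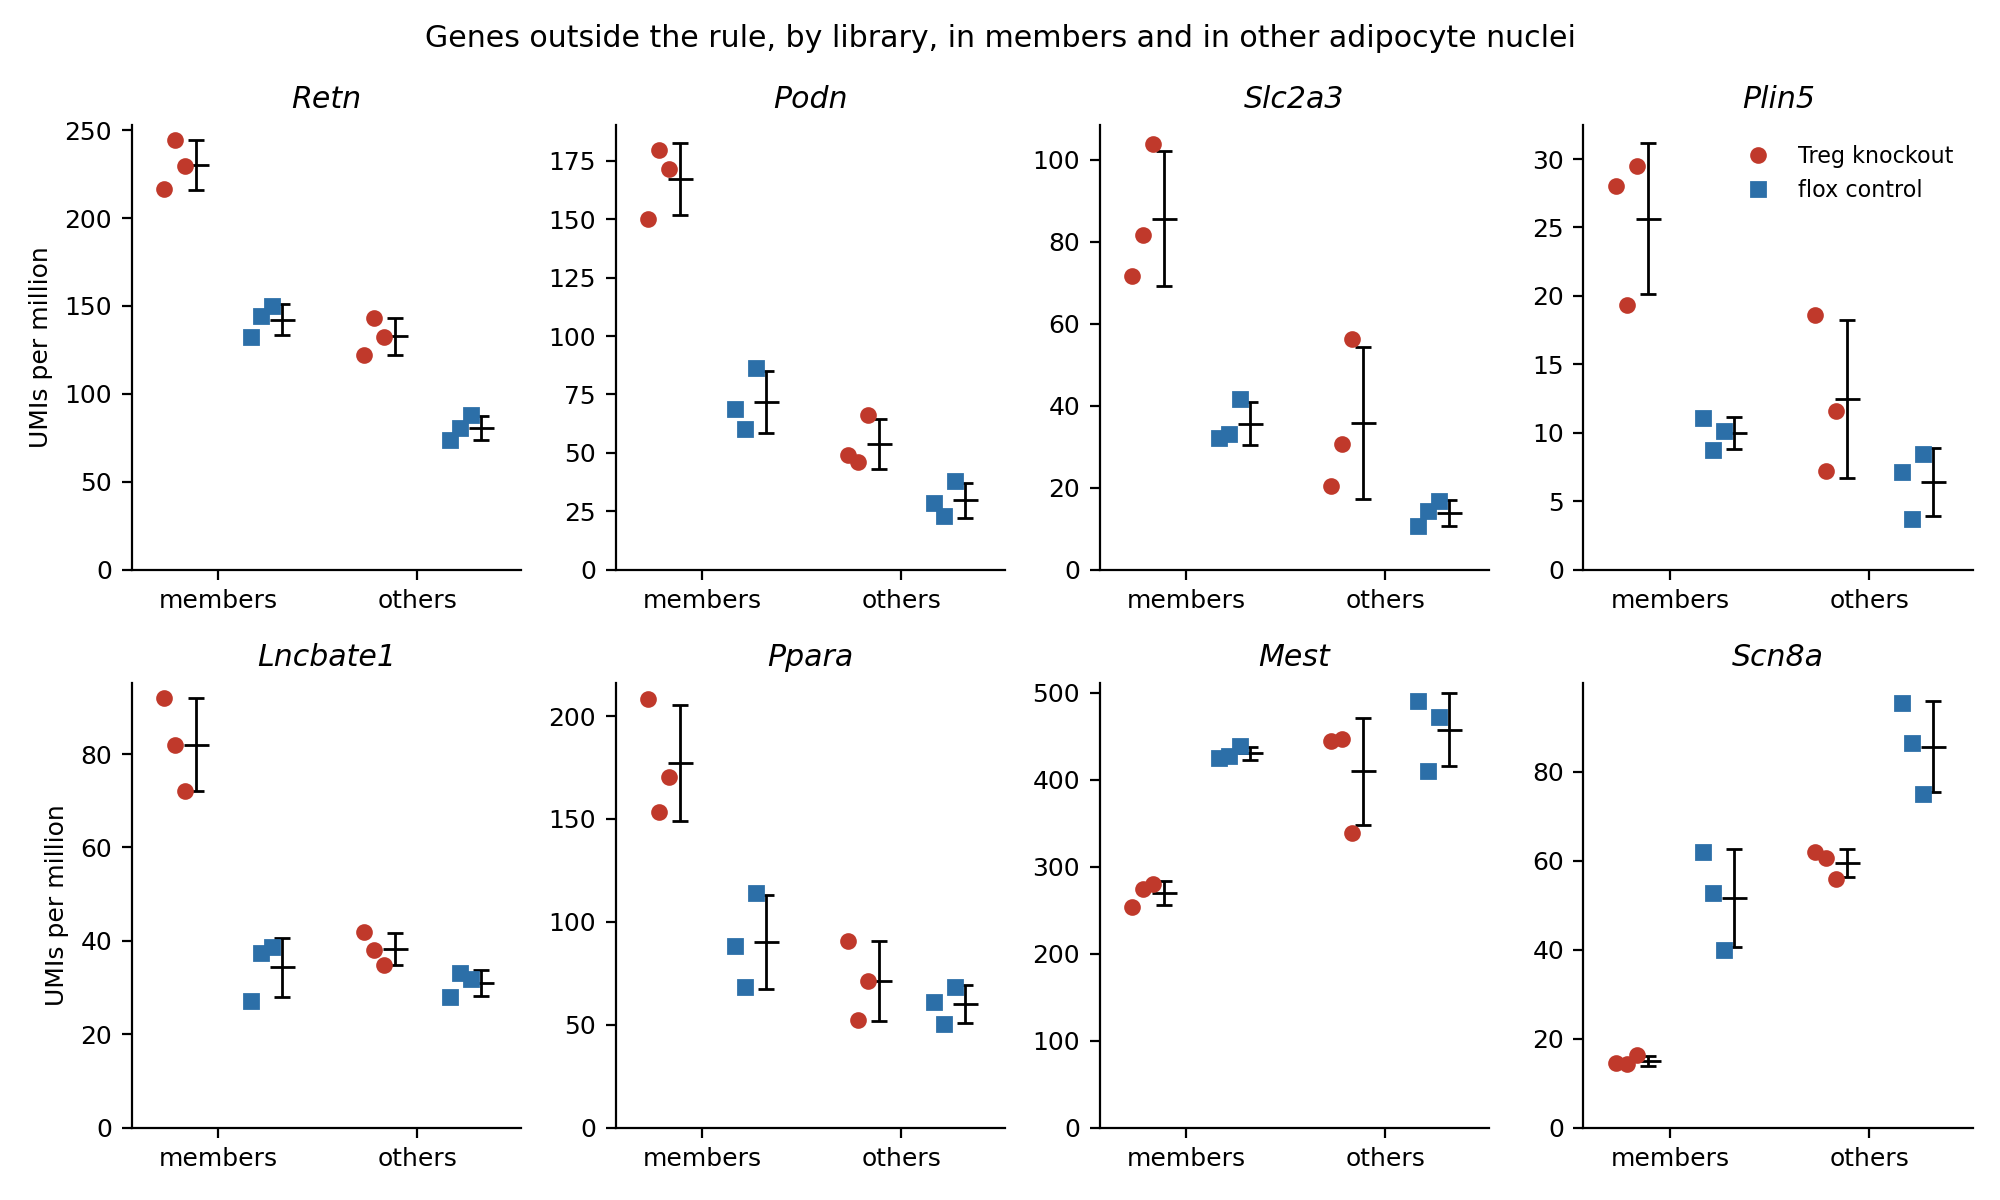
Level in CPM of 8 genes outside the rule, in members and in the other adipocyte nuclei, with 1 point per library. Red circles are Treg knockout libraries, blue squares flox control libraries and black bars mean ± SD; Retn, Podn, Slc2a3, Plin5, Lncbate1 and Ppara lay higher in knockout members and Mest and Scn8a lower, with no overlap between groups in members.

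Genes of metabolic and signalling interest that were to be given whatever their result did not pass the test in members. Gpsm1 itself had 14.8, 12.99 and 14.1 CPM in knockout members, against 9.61, 9.98 and 14.1 CPM in control members (log2 fold change 0.28 ± 0.17, edgeR adjusted p = 0.464), and adipocyte nuclei are not a check of a deletion in Treg cells. Lep, which encodes leptin, had 395, 375 and 380.3 CPM in knockout members, against 441, 411 and 366 CPM in control members (log2 fold change -0.11 ± 0.10, edgeR adjusted p = 0.62). Vegfa, the angiogenic factor that fat also secretes, had 506, 721 and 563 CPM in knockout members, against 391, 338 and 479 CPM in control members (log2 fold change 0.55 ± 0.16, edgeR adjusted p = 0.19). The groups overlapped for Lep and were apart for Vegfa. Adipoq, a rule gene given without a test, had 286, 325 and 259 CPM in knockout members, against 236, 249.8 and 252 CPM in control members. Slc2a4 had 64.1, 62.3 and 52.4 CPM in knockout members, against 45.2, 48.2 and 42.6 CPM in control members (log2 fold change 0.37 ± 0.11, edgeR adjusted p = 0.196). Pparg, the master regulator of fat cell identity, had 2653, 2653 and 2194 CPM in knockout members, against 1725, 2118 and 2014 CPM in control members (log2 fold change 0.33 ± 0.12, edgeR adjusted p = 0.242). Both were higher in all knockout libraries, whereas Fasn, the fatty acid synthase, had 18.4, 13.1 and 12.4 CPM in knockout members, against 19.6, 28.8 and 25.1 CPM in control members (log2 fold change -0.78 ± 0.20, edgeR adjusted p = 0.152) and lay below every control library. Of genes that link fat to Treg cells, Il33, the alarmin that Treg cells of fat sense through ST2, had 2.38, 1.80 and 3.34 CPM in knockout members, against 3.63, 7.76 and 3.63 CPM in control members (log2 fold change -1.02 ± 0.41, edgeR adjusted p = 0.289). Nt5e, which encodes CD73, had 3.27, 3.70 and 8.21 CPM in knockout members, against 2.54, 2.69 and 3.50 CPM in control members (log2 fold change 0.78 ± 0.40, edgeR adjusted p = 0.391). Il33 lay lower in all knockout libraries at levels of a few CPM, and Nt5e overlapped. The adenosine receptor gene Adora1 had 88.3, 55.7 and 57.5 CPM in knockout members, against 61.8, 55.9 and 66.5 CPM in control members (log2 fold change 0.10 ± 0.18, edgeR adjusted p = 0.83). The adenosine kinase gene Adk had 426, 422 and 386 CPM in knockout members, against 452, 491 and 501 CPM in control members (log2 fold change -0.25 ± 0.08, edgeR adjusted p = 0.195).

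Gene lists are described by how many of their tested genes had knockout values wholly above or wholly below the control values in members, beside 12.3% higher and 9.16% lower over all genes, and by their median log2 fold change, beside 0.01 over all genes. No gene of any list passed the test, and genes of the rule are left out of these counts. Of 27 extracellular matrix and fibrosis genes, 1 lay higher and 6 lower without overlap, with a median of -0.49 in members and -0.05 in the other adipocyte nuclei. The 6 lower genes were the collagens Col4a5, Col5a1, Col5a2, Col5a3, Col6a1 and Col6a2, with log2 fold changes of -1.72, -0.49, -0.64, -0.53, -0.64 and -0.90. In the same sums, macrophage, endothelial, mural and progenitor markers had median log2 fold changes of -1.18, -1.23, -1.01 and -0.38. Once members with over 0.2% of such RNA were left out, Col4a5 passed the edgeR test as lower and no other gene of the list did.

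De novo lipogenesis genes went both ways, since of 20 tested 4 lay higher and 7 lower without overlap, with a median of -0.24. The lower ones supply cytosolic acetyl-CoA and NADPH or build and modify the chain, with log2 fold changes of -0.31 for Acly, -0.63 for Acss2, -0.32 for Me1, -0.46 for G6pdx, -0.78 for Fasn, -0.81 for Elovl6 and -1.04 for Scd2. The higher ones were Acacb, the acetyl-CoA carboxylase of the mitochondrial surface, with 1.13, and the regulators Srebf1, Mlxipl and Thrsp, with 0.45, 0.51 and 0.71. Of 16 glyceroneogenesis and triglyceride synthesis genes, 5 lay higher and 1 lower without overlap. The higher ones included the acyltransferase genes Gpat3 and Gpat4, with log2 fold changes of 0.31 and 0.40, Gpd1, which makes glycerol phosphate, with 0.47, and Bscl2, the seipin of droplet assembly, with 0.23, and the lower one was the glycerol channel gene Aqp7, with -0.19. Of 22 fatty acid oxidation genes, 5 lay higher and 0 lower without overlap, and the higher ones included Cpt1b, Acadvl, Hadha and Ppara, with log2 fold changes of 0.74, 0.47, 0.16 and 0.95. Of 34 oxidative phosphorylation genes, 8 lay higher and 0 lower without overlap, with a median of 0.08, and of 30 cytosolic ribosomal protein genes 0 lay higher and 0 lower without overlap. Of 18 fatty acid uptake and binding genes, 3 lay higher and 3 lower without overlap, with the acyl-CoA synthetase genes Acsl3 and Acsl5 (0.12 and 0.21) on the higher side and the lipoprotein lipase gene Lpl (-0.38) on the lower. Lipolysis and beta-adrenergic genes included Adrb1, a beta-adrenergic receptor, higher at 0.42 and Npr3 lower at -0.55, of 16 tested.

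Of 18 circadian clock genes, 5 lay higher and 0 lower without overlap, with a median of 0.27 in members and 0.03 in the other nuclei. The higher ones were the repressor genes Per2, Nr1d2 and Ciart, with log2 fold changes of 0.38, 0.37 and 1.07, and the output factors Tef and Hlf, with 0.56 and 1.08. The hour of sampling is not given, so a difference in hour and the genotype cannot be told apart for these genes. Of 27 insulin signalling and glucose uptake genes, 5 lay higher and 2 lower without overlap. The higher ones were Akt2, the insulin-responsive kinase of fat (0.20), the transporters Slc2a4 and Slc2a3, Trarg1, which regulates GLUT4 traffic (0.29), and Grb10 (0.95), an adaptor that restrains the insulin receptor, and the lower ones included Grb14 (-0.84), an adaptor of the same kind. Of 20 cholesterol genes, 0 lay higher and 3 lower without overlap, with a median of -0.23, and these included Fdps of the mevalonate pathway (-0.89) and the cholesterol exporter gene Abca1 (-0.19). Of 26 adipogenic transcription factors and cofactors, 3 lay higher and 0 lower without overlap, namely Pparg, Srebf1 and the liver X receptor gene Nr1h3 (0.35). Of 20 branched-chain amino acid genes, 3 lay higher and 1 lower without overlap, with the transaminase gene Bcat2 (0.33) higher, and of 19 amino acid transport genes 2 lay higher and 1 lower without overlap.

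Lists of secreted and immune-facing genes had 0 to 3 genes higher and 0 to 5 lower without overlap. Of 12 adipokines, 3 lay higher and 2 lower without overlap, with Retn, Angptl4, an inhibitor of lipoprotein lipase (0.14), and Vegfa on the higher side and Metrnl (-0.99) and Sfrp5 on the lower. Of 20 angiogenic and guidance factors, 2 lay higher and 5 lower without overlap, the lower ones being the co-receptor genes Nrp1 and Nrp2 (-0.20 and -0.94), Fgf1, Slit2 (-1.50) and Ntn1 (-0.53). Of 20 interferon response genes, 3 lay higher and 0 lower without overlap, including Irf7 and Tap1, with log2 fold changes of 0.72 and 0.64. Of 20 adipocyte inflammation and stress genes, 0 lay higher and 3 lower without overlap, namely the endotoxin receptor gene Tlr4 (-0.27), Trib3 (-0.71) and Hmox1, heme oxygenase (-0.99). Of 16 adenosine, ST2 and Treg-facing genes, 0 lay higher and 3 lower without overlap, namely Entpd1, which encodes CD39 (-0.59), Adk and Il33. In the same sums, 9 of 13 macrophage markers lay lower without overlap, with a median log2 fold change of -1.18. Lpl, which is an adipocyte marker as well, is among the 9, and the summed macrophage markers without Lpl overlapped between the groups. Among members with little RNA of other cell types, 0 genes of the stress and Treg-facing lists passed the edgeR test. The part of macrophage RNA in their values was not tested beyond those restricted sums. Of 10 imprinted growth genes, 2 lay higher and 2 lower without overlap, and of 13 thermogenic and futile cycling genes 0 lay higher and 1 lower without overlap.

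Whether the knockout effect differed between members and the other adipocyte nuclei of the same libraries was tested with the library as a block. Of 15473 genes, 20 had an effect more positive in members and 82 one more negative (0.659% called by edgeR, 0.129% and 0.53% by direction), with 1 rule gene, Plagl1, among the second and left without a test. Of the 82, 52 stood lower in members than in the others in all 6 libraries (63.4%, against 12.5% of all genes) and 0 higher. A negative log2 fold change in members was found for 79 of them. Of the 20, 8 stood higher in members in all 6 libraries (40.0%, against 28.3% of all genes) and 0 lower. No alternative held the margin over the competing sets fixed. The part of the nearer border of control members in these differences was therefore not tested. Counts under other rules for the class are given in the closing section.

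Among the genes with the more negative effect in members, Scn8a had the lowest p. Scn8a had 61.8, 60.5 and 55.8 CPM in the other adipocyte nuclei of knockout libraries, against 95.4, 86.5 and 75.0 CPM in those of control libraries, so that members showed the larger gap between groups (difference of log2 fold changes -1.24 ± 0.12, edgeR adjusted p = 0.00228). Unc79 had 113, 125 and 92.6 CPM in knockout libraries against 123, 118 and 116 CPM in control libraries in the other nuclei, where the groups overlapped (difference -1.11 ± 0.13, edgeR adjusted p = 0.00757). Cux2, a homeobox factor, had 17.8, 15.4 and 12.2 CPM in knockout members, against 49.9, 41.7 and 27.9 CPM in control members, and 64.1, 89.1 and 61.9 CPM in knockout libraries against 82.9, 78.7 and 71.5 CPM in control libraries in the others (difference -1.28 ± 0.20, edgeR adjusted p = 0.0389). In members the groups did not overlap for any of the 3 genes, and Cux2 is a leading gene of sub-cluster 3, which held more of the members in flox controls 1 and 2 than in any knockout library. Prkag3, a regulatory subunit of AMP-activated kinase, had 14.4, 11.8 and 6.69 CPM in knockout members, against 29.6, 23.1 and 17.0 CPM in control members (difference -1.03 ± 0.18, edgeR adjusted p = 0.0297). Npr3, the clearance receptor for natriuretic peptides, had 2197, 2080.4 and 1552 CPM in knockout members, against 2773, 2994 and 2603 CPM in control members, and 2852, 3200.4 and 2573 CPM in knockout libraries against 2830.0, 3193 and 2940.4 CPM in control libraries in the others (difference -0.49 ± 0.10, edgeR adjusted p = 0.0428). Fgf1, a growth factor of adipose remodelling, had 75.7, 51.2 and 42.7 CPM in knockout members, against 122, 96.8 and 86.8 CPM in control members (difference -0.65 ± 0.11, edgeR adjusted p = 0.0301). For Prkag3, Npr3 and Fgf1, every knockout library lay below every control library in members. Sfrp5, a secreted Wnt antagonist of fat, had 30.6, 31.4 and 34.0 CPM in knockout members, against 52.8, 46.1 and 39.5 CPM in control members, while in the others it had 52.7, 52.4 and 55.1 CPM in knockout libraries against 52.1, 43.6 and 39.6 CPM in control libraries (difference -0.78 ± 0.09, edgeR adjusted p = 0.00604). Sfrp5 was thus lower in knockout members and higher in the other knockout nuclei, with no overlap between groups in either class. Cd1d1, the lipid-presenting molecule seen by NKT cells, had overlapping values in members, with 363, 318 and 282 CPM in knockout libraries against 298, 407 and 346 CPM in control libraries (difference -0.52 ± 0.10, edgeR adjusted p = 0.0399).

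The called genes of the extracellular matrix list were collagen VI and collagen V genes. Col6a1 had 13.5, 17.8 and 16.8 CPM in knockout members, against 27.7, 22.2 and 24.2 CPM in control members. It had 22.4, 40.7 and 25.7 CPM in the other adipocyte nuclei of the knockout libraries, against 20.2, 18.8 and 18.4 CPM in those of the control libraries (difference -1.25 ± 0.16, edgeR adjusted p = 0.00757). Its direction was opposite in the classes, with no overlap between groups in either. With nuclei thinned to 2000 UMIs and no Cfd or Pck1 in the rule, the Col6a1 difference was -0.43, with an edgeR adjusted p of 0.423, and the call was lost. Col6a2 had 9.95, 11.9 and 8.98 CPM in knockout members, against 20.3, 15.5 and 20.6 CPM in control members (difference -1.06 ± 0.17, edgeR adjusted p = 0.023). Col5a1 had 67.1, 65.3 and 61.6 CPM in knockout members, against 114, 82.8 and 70.5 CPM in control members (difference -0.66 ± 0.12, edgeR adjusted p = 0.0304). Col5a3 had 95.8, 97.4 and 84.6 CPM in knockout members, against 125, 148 and 121 CPM in control members (difference -0.52 ± 0.08, edgeR adjusted p = 0.0195). With members and others of little other-type RNA only, the edgeR adjusted p was 0.0439 for Col6a1, and 0.215, 0.183 and 0.128 for Col6a2, Col5a1 and Col5a3, which no longer passed. The differences there were -0.93, -0.75, -0.57 and -0.34 for Col6a1, Col6a2, Col5a1 and Col5a3. Aqp1, a water channel of endothelium and fat, had 3.86, 7.11 and 3.34 CPM in knockout members, against 16.7, 8.08 and 34.3 CPM in control members. Fabp5, a fatty acid binding protein with near-identical gene copies, had 19.6, 18.8 and 12.0 CPM in knockout members, against 52.2, 30.9 and 48.5 CPM in control members. The highest control value was in flox control 3 for Aqp1 and in flox control 1 for Fabp5. With little other-type RNA the adjusted p was 0.882 and 0.159 in edgeR, against 0.0301 and 0.0297 over all nuclei, and the differences were -0.36 and -0.69.

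Other genes had the more positive effect in members. Ppara, the nuclear receptor that drives fatty acid oxidation (chr15:85734983-85802819), had 208, 153 and 170.2 CPM in knockout members, against 88.3, 68.4 and 114 CPM in control members. It had 90.8, 52.0 and 71.2 CPM in the other adipocyte nuclei of the knockout libraries, against 61.1, 50.3 and 68.5 CPM in those of the control libraries (difference 0.75 ± 0.11, edgeR adjusted p = 0.0163). The groups were apart in members and overlapped in the others. Ppargc1a had 112, 100.3 and 74.6 CPM in knockout members, against 55.5, 74.8 and 65.2 CPM in control members, and 37.5, 26.4 and 28.2 CPM in knockout libraries against 29.0, 43.6 and 30.5 CPM in control libraries in the others (difference 0.69 ± 0.13, edgeR adjusted p = 0.0451). Its groups overlapped in members, by knockout library 3 and flox control 2, and only the ratio of members to others kept the groups apart. The Ppargc1a call was kept in 9 of 20 alternatives, and the difference was 0.44 at 3000 to 8000 UMIs and 0.14 with thinning and no Cfd or Pck1, with edgeR adjusted p of 0.4255 and 0.901. Lncbate1 had 41.9, 38.0 and 34.9 CPM in knockout libraries against 27.9, 33.2 and 31.8 CPM in control libraries in the others, also without overlap and with a smaller gap than in members (difference 0.94 ± 0.10, edgeR adjusted p = 0.00581). Among nuclei of 3000 to 8000 UMIs the Lncbate1 difference was 0.28, with an edgeR adjusted p of 0.658, and the call was lost. Cnr1, the cannabinoid receptor, had 14.6, 20.8 and 15.5 CPM in knockout members, against 7.25, 10.8 and 9.85 CPM in control members (difference 0.91 ± 0.17, edgeR adjusted p = 0.0399). Acaca, the cytosolic acetyl-CoA carboxylase, had 452, 562 and 577 CPM in knockout members, against 311, 397 and 484 CPM in control members (difference 0.69 ± 0.10, edgeR adjusted p = 0.0195). Knockout and control values did not overlap for Cnr1 and did for Acaca. Gli2, a Hedgehog pathway factor, had 102, 100.4 and 84.7 CPM in knockout members, against 67.1, 46.9 and 61.3 CPM in control members (difference 0.76 ± 0.12, edgeR adjusted p = 0.0249). Ift81, of cilium transport, and Naa25, of amino-terminal acetylation, had differences of 0.73 ± 0.12 and 0.65 ± 0.12, with edgeR adjusted p of 0.027 and 0.0399. Cdh2, N-cadherin, lay lower in the other knockout nuclei, with 6.86, 2.54 and 7.07 CPM in knockout libraries against 11.7, 12.0 and 17.9 CPM in control libraries, while in members it had 26.6, 15.7 and 29.1 CPM in knockout libraries against 21.2, 30.9 and 35.0 CPM in control libraries (difference 1.06 ± 0.20, edgeR adjusted p = 0.0387).

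Of the genes named for other reasons, 4 passed the test of the difference too. Trpc4, a cation channel gene at low levels, had 0.297, 0.379 and 0.191 CPM in knockout members, against 4.71, 3.80 and 2.59 CPM in control members (difference -2.74 ± 0.48, edgeR adjusted p = 0.0297). Its knockout member values rest on few UMIs. In the others it had 18.2, 12.8 and 5.39 CPM in knockout libraries against 26.1, 31.4 and 8.79 CPM in control libraries. For Trpc4 and Nr4a3 the ratio of members to others overlapped between the groups. Nr4a3, a nuclear receptor that leads sub-cluster 2, had 0.297, 20.2 and 8.69 CPM in knockout members, against 0.544, 0.158 and 0.778 CPM in control members (difference 3.46 ± 0.69, edgeR adjusted p = 0.0462), high in knockout libraries 2 and 3 and not in knockout library 1. Mylk and Cdkl4, which were lower in members in every library, had differences of -0.63 and -0.73, with edgeR adjusted p of 0.0451 and 0.0314.

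Leaving out single libraries changed these calls strongly. Over all genes the test called 47 more positive and 131 more negative without knockout library 1, and 0 and 1 without flox control 1. Of the 23 genes that the naming rule gave, 10 kept the call without flox control 3, 4 without flox control 2 and 1 without flox control 1, and 22, 8 and 10 without knockout library 1, 2 or 3. Scn8a kept it in each of the 20 alternatives run, with edgeR or DESeq2 adjusted p up to 0.0448. Ppara and Sfrp5 kept it in all but those without flox control 1 or 2, where edgeR gave Ppara 0.144 and 0.0739 and Sfrp5 0.0871 and 0.0559 as adjusted p. Those that kept it without flox control 3 were Lncbate1, Acaca, Cux2, Col6a1, Scn8a, Unc79, Prkag3, Col5a1, Ppara and Sfrp5, and of the 4 genes named for other reasons Trpc4, Nr4a3 and Mylk did. Among members and others with little RNA of other cell types, 13 of the 23 passed. Without doublets 14 of them passed, without nuclei with immune markers 12, with thinning and no Cfd or Pck1 11, and at 3000 to 8000 UMIs 9. With the span trend removed 20 of the 23 passed. Cd1d1, Cux2 and Npr3 lost their calls there, as did Mylk of the genes named for other reasons. At 3000 to 8000 UMIs 25 of the 102 calls over all genes were shared, and Aqp1, Cdh2, Cnr1, Col5a1, Col5a3, Cux2, Fabp5, Fgf1, Ift81, Lncbate1, Naa25, Ppargc1a, Prkag3 and Unc79 lost theirs. With thinning and no Cfd or Pck1 the calls of Aqp1, Cd1d1, Cdh2, Cnr1, Col5a1, Col6a1, Fabp5, Gli2, Lncbate1, Naa25, Ppargc1a and Unc79 were lost, and the difference was 0.53 for Cdh2, -0.55 for Fabp5, -0.30 for Cd1d1 and 0.98 for Nr4a3, which lost its call too. The differences themselves kept their sign under every alternative that gave a value, for each of the named genes but Aqp1 and Trpc4. Aqp1 had 0.86 among nuclei of 3000 to 8000 UMIs, and Trpc4 had 0.83 with thinning and no Cfd or Pck1 in the rule. Nr4a3 had a value in 14 of the 20 alternatives only, and none at 3000 to 8000 UMIs.

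**Figure D5:**
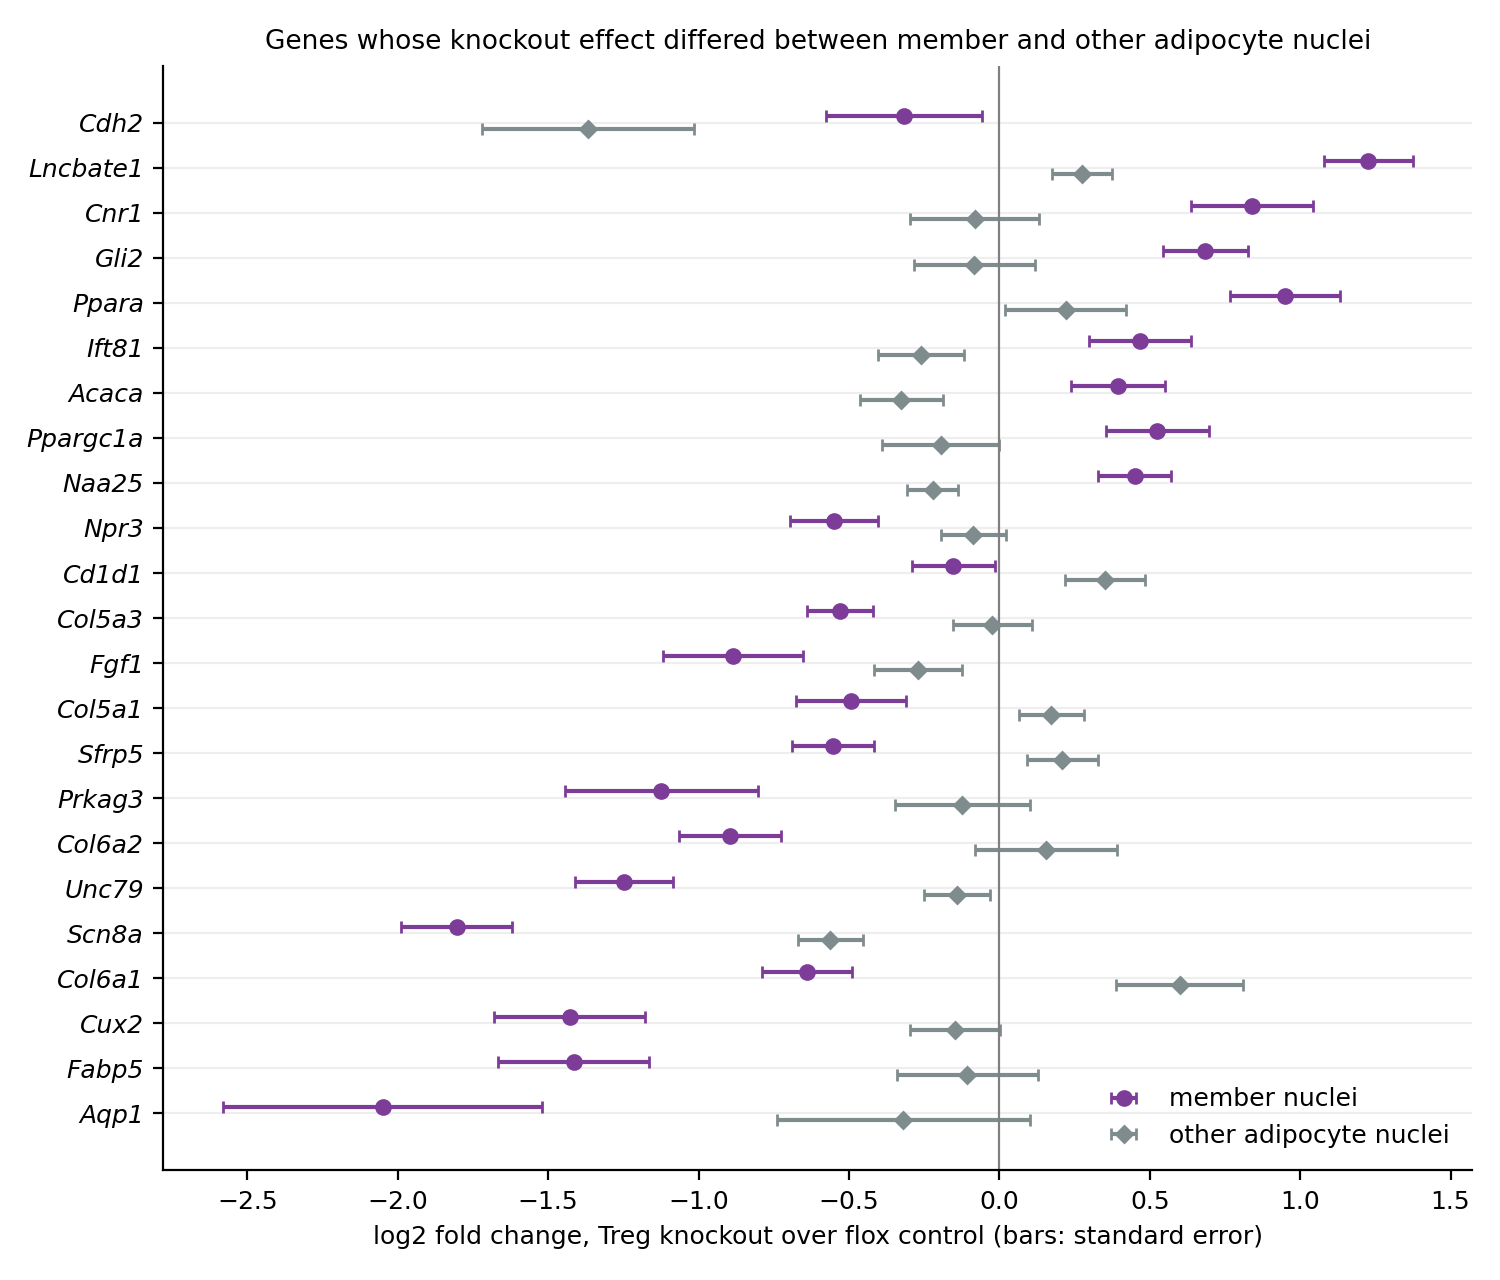
Log2 fold change of Treg knockout over flox control (horizontal axis, bars are standard errors) in members (purple circles) and in the other adipocyte nuclei (grey diamonds), for the 23 genes of the naming rule whose effect differed between the classes. Scn8a lies at -1.80 in members and -0.56 in the others, Ppara at 0.95 and 0.22, and Col6a1 at -0.64 and 0.60.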

How the data were processed

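Single-nucleus RNA-seq was measured in 6 libraries of subcutaneous white fat, 3 Treg knockout and 3 flox control, from 3 mice per genotype per the labels. The deposited files hold whole-number UMI counts per gene and barcode, per the file headers and values. Cell Ranger 7.1 is named in the submitters' processing notes, which name mm10 and GRCh38, and every gene in the files is a mouse gene. Neither the counting of intronic reads nor the filter on barcodes is described there. The members and the gene lists were chosen with earlier results of these data known.

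Counts were summed per library over members and over the other adipocyte nuclei and tested in R 4.3.3 with the robust quasi-likelihood test of edgeR 4.0.16 (TMM scaling, filterByExpr, Benjamini-Hochberg adjustment at 0.05 over all genes tested), with DESeq2 1.42.0 as an alternative. The difference between classes was fitted on 12 sums with the library as a block. No other covariate was used. The labels do not tie a library to a mouse, and each library was taken as 1 mouse. Groups of 3 against 3 cannot give an exact permutation p under 0.1. Gene spans came from GENCODE vM21, promoters from RefSeq. Doublets were called with Scrublet in scanpy 1.11.5, as the top 0.8% for every 1000 barcodes, and left in, except in 1 alternative. Named genes were to be the largest changes in members that passed, of which there were none, so the 16 genes of lowest p in members are given, chosen after their values were seen. To these were added the 8 largest differences each way, among genes that passed, had a mean of at least 10 CPM in one group of members and had a ratio of members to others whose groups did not overlap, list genes that passed, a fixed set given whatever their result, and the 20 genes each way by lowest ratio of members to others, with other genes named as chosen after their values were seen. Rule genes and markers of other cell types were left out of the named changes. The procedure was tested on simulated data.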

Additional observations from a re-analysis of the deposited data

Results flagged for a closer look

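The knockout effect differed between members and the other adipocyte nuclei for 27 named genes, by the test of that difference (edgeR quasi-likelihood, adjusted over all genes). Control members lay nearer the border of the class than knockout members did, and the part of this in the differences was not tested. The differences of log2 fold changes that were more negative in members were -2.74 for Trpc4, -1.69 for Aqp1, -1.30 for Fabp5, -1.28 for Cux2, -1.25 for Col6a1, -1.24 for Scn8a, -1.11 for Unc79, -1.06 for Col6a2, -1.03 for Prkag3, -0.78 for Sfrp5, -0.73 for Cdkl4, -0.66 for Col5a1, -0.65 for Fgf1, -0.63 for Mylk, -0.52 for Col5a3, -0.52 for Cd1d1 and -0.49 for Npr3. Those more positive in members were 3.46 for Nr4a3, 1.06 for Cdh2, 0.94 for Lncbate1, 0.91 for Cnr1, 0.76 for Gli2, 0.75 for Ppara, 0.73 for Ift81, 0.69 for Acaca, 0.69 for Ppargc1a and 0.65 for Naa25. Endothelial markers in members were highest in flox control 3, where Aqp1 was highest as well, and the part of those nuclei in its value was tested only by the restricted sums given above. Groups of 3 libraries are too small for a test of single outlying samples.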

How the results depend on the processing

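The mean share of members was 76.8% in knockout and 42.4% in control libraries among nuclei of 3000 to 8000 UMIs and 16.7% in knockout and 4.20% in control libraries without Cfd and Pck1 in the rule. Without both it was 29.4% in knockout and 11.8% in control libraries with thinning to 2000 UMIs and 34.1% in knockout and 14.9% in control libraries with thinning to 1000 UMIs. The groups did not overlap in any of these settings. Where Cfd and Pck1 were left out, the competing sets kept their 5 genes. In members, where edgeR called none, the counts were 163 higher and 297 lower with DESeq2, 4 higher and 8 lower with library totals alone, 50 higher and 75 lower without a filter on low counts, 7 higher and 23 lower without doublets and 19 higher and 37 lower without nuclei with immune markers. They were 2 higher and 10 lower at 3000 to 8000 UMIs, 18 higher and 50 lower with the rule on thinned nuclei, 51 higher and 126 lower with thinning and no Cfd or Pck1, 6 higher and 15 lower with all 5 genes required. They were 30 higher and 73 lower with little RNA of other cell types, and 1 higher and 0 lower with the trend on gene span removed. Leaving out 1 library gave 0 to 11 higher and 0 to 17 lower. A replicate block gave 5 higher and 7 lower, and 60 higher and 42 lower with the span trend removed as well. The correlations of deviations of same-numbered libraries were -0.032, 0.025, 0.264, so the numbers were not taken to pair them.

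Of differences between classes, the counts were 108 more positive and 223 more negative without a filter, 11 more positive and 43 more negative with little RNA of other cell types, and, for the more negative side, 50 without doublets, 54 at 3000 to 8000 UMIs, 52 against nuclei led by the Mageb18 set alone, 47 with the span trend removed and 147 with thinning and no Cfd or Pck1. Leaving out 1 library gave 0 to 47 more positive and 1 to 131 more negative. The sign turned for Aqp1 (0.86 at 3000 to 8000 UMIs) and Trpc4 (0.83 with thinning and no Cfd or Pck1) among the differences, and, in members, for Gpsm1 (-0.20 at 3000 to 8000 UMIs) and Adora1 (-0.0635 with thinning and no Cfd or Pck1, and -0.14 to 0.22 when 1 library was left out). Of the other values for named genes, 328 of the differences kept direction and side of the threshold and 204 lost the call; in members 415 kept both and 165 passed it. The settings with all 5 genes, little other RNA, the Mageb18 set alone, thinning with Cfd and Pck1 left out and, for the share, nuclei of 3000 to 8000 UMIs were chosen after seeing the data. The causes were not tested. Depth limits genes of a few CPM, such as Il33 and Nt5e.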
